A study of Mus musculus with 21 samples.

Results

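The genes described here are 38 members of the protein-folding and quality-control system of the endoplasmic reticulum (ER), taken by name from the 55536 genes counted in mouse pancreatic islets. They form 3 branches. The chaperone branch holds 21 genes for chaperones, co-chaperones and folding enzymes. The ER-associated degradation (ERAD) branch holds 11 genes. The sensor branch holds 6 genes for sensors and regulators of the unfolded protein response (UPR). Each symbol matched exactly 1 gene identifier in the files, and all 38 members passed the filter of at least 10 reads over all samples. RNA was sequenced from 21 samples of islets of male CBA mice, 7 samples in each of 3 groups. RD mice received a regular diet, HFD mice a high-fat diet, and HFD-O304 mice the high-fat diet with 0.8 mg of O304 per g of diet. O304 is a small molecule that activates AMP-activated protein kinase in all its forms. The mice were 10 weeks old when the diets began and stayed on them for 9 or 10 weeks, both durations being given in the description of the study. No group carries a transgene or deletion. Each sample was 150 hand-picked islets from a pool of 5 mice, so the spread between samples is that between pools, and the labels do not say whether any pools share mice. Islets hold several endocrine cell types, of which the insulin-producing beta cells are the most numerous in mice.

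As background, proteins that are to be secreted, insulin among them, fold in the ER. Chaperones such as BiP (Hspa5) and the protein disulphide isomerases assist folding and disulphide formation, and proteins that fail to fold are recognised, moved back to the cytosol and degraded by ERAD. When unfolded protein builds up, the membrane sensors IRE1 alpha (Ern1), PERK (Eif2ak3) and ATF6 (Atf6) start the UPR. IRE1 alpha splices Xbp1 mRNA to give an active transcription factor, PERK slows translation, and a cleaved part of ATF6 enters the nucleus. XBP1 and ATF6 are known to raise transcription of chaperone and ERAD genes. Sensor activation occurs largely through splicing, phosphorylation and cleavage, and the counts per gene used here do not record any of these.

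Total reads on genes ranged from 31746115 to 41559322 in RD, from 27618749 to 44041180 in HFD and from 13809266 to 48922569 in HFD-O304, where replicate 2 was the shallowest. HFD-O304 replicate 1 is titled HFD-O304 but its diet entry reads HFD, and it was grouped by its title. The libraries of replicates 1 to 4 of every group carry one run of numbers and those of replicates 5 to 7 the next. In the first run the numbers go group by group, RD before HFD before HFD-O304, so group and library order cannot be told apart there. In the next they go replicate by replicate, with the same replicate of RD, HFD and HFD-O304 side by side. The labels do not say what the runs or the order within them stand for. The members differed between the runs. In RD, 30 of the 38 members had all of replicates 1 to 4 above all of replicates 5 to 7, against 5.96% of all 27229 genes tested. This held for 18 members in HFD-O304 (4.37% of all genes) and for 11 in HFD (6.91%). Within groups, RD replicate 2 was the highest RD sample for 23 members and RD replicate 6 the lowest for 25, while HFD replicate 7 was the lowest HFD sample for 27 members. Counts were therefore also compared within each run of libraries and without RD replicate 2 and HFD replicate 7.

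The cell-type markers differed between the groups as well. The summed normalized count of 5 alpha-cell markers was 839089 to 1049514 in RD, 377104 to 694809 in HFD and 851868 to 1141878 in HFD-O304, so HFD lay below both other groups. Of these markers, Gcg (glucagon) and Irx2 were lower in HFD than in RD and higher in HFD-O304 than in HFD, and Ttr changed the opposite way both times. The sum of 8 beta-cell markers was 10087287 to 12208452 in RD, 11690024 to 13679725 in HFD and 9300726 to 11021579 in HFD-O304. The beta-cell markers did not move together. In HFD vs RD, Iapp (amylin) was called higher and Slc2a2, the glucose transporter GLUT2, lower. In HFD-O304 vs HFD, Ins1, Ins2 and Iapp were called lower and Slc2a2 and Ucn3 higher. Acinar cells of the exocrine pancreas also make much ER chaperone RNA. The sum of 13 acinar markers spanned 3766 to 318395 in RD, 1074 to 239431 in HFD and 763 to 105885 in HFD-O304, and 0 of the 13 passed in any comparison by edgeR or DESeq2, with 0 at an unadjusted p under 0.05. With the acinar marker level as a covariate, 3 members passed the test for HFD vs RD (2.05% of all genes were called higher) and 24 for HFD-O304 vs HFD (6.71% lower), against 2 and 24 without it. The shorter lists for rarer cells were compared in HFD-O304 vs HFD. By edgeR, 3 of 4 duct and 2 of 3 delta and PP markers were called higher, against 1382 of all 27229 genes tested. The remaining duct marker, Spp1, went the other way, with a log2 fold change of -0.33 (adjusted p = 0.138). The summed duct count overlapped, at 2552 to 4253 in HFD and 2181 to 4396 in HFD-O304. Called lower were 2 of 4 endothelial and 2 of 3 stromal markers, against 6.79% of all genes, and 1 of 4 B and plasma cell markers was called higher. Of 5 macrophage markers, edgeR called 0 and DESeq2 called 1, and 3 had an unadjusted p under 0.05. In bulk islets, a different number of cells of a type and a different amount of RNA per cell cannot be told apart, and the part of the alpha-cell and beta-cell markers in the results was not tested.

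The levels of the members, set beside each other per length of transcript (TPM, the share of all transcripts scaled by length), ran from 1.42 to 1034 in RD. P4hb, which encodes protein disulphide isomerase itself, had the highest median at 1034 TPM (825 to 1256). Hspa5 followed at 977 TPM (786 to 1429) and Pdia3, which acts on glycoproteins, at 931 TPM (825 to 1135). These neighbours overlapped in range and were not told apart. The lectin chaperone Calr stood at 836 TPM and Hsp90b1, the ER member of the HSP90 family, at 639 TPM. The highest ERAD member was the lectin Os9 at 256 TPM and the highest sensor member was Xbp1 at 233 TPM. The sensors Ern1, Atf6 and Eif2ak3 lay lower, at 53.8, 50.9 and 30.8 TPM. Cdnf, a relative of Manf, was the lowest member at 1.42 TPM (0.855 to 1.69). The chaperone branch summed to a median of 7574 TPM in RD, against 8996 TPM in HFD and 6698 TPM in HFD-O304, the ERAD branch to 1225, 1446 and 1087, and the sensor branch to 552, 515 and 528.

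**Figure D1:**
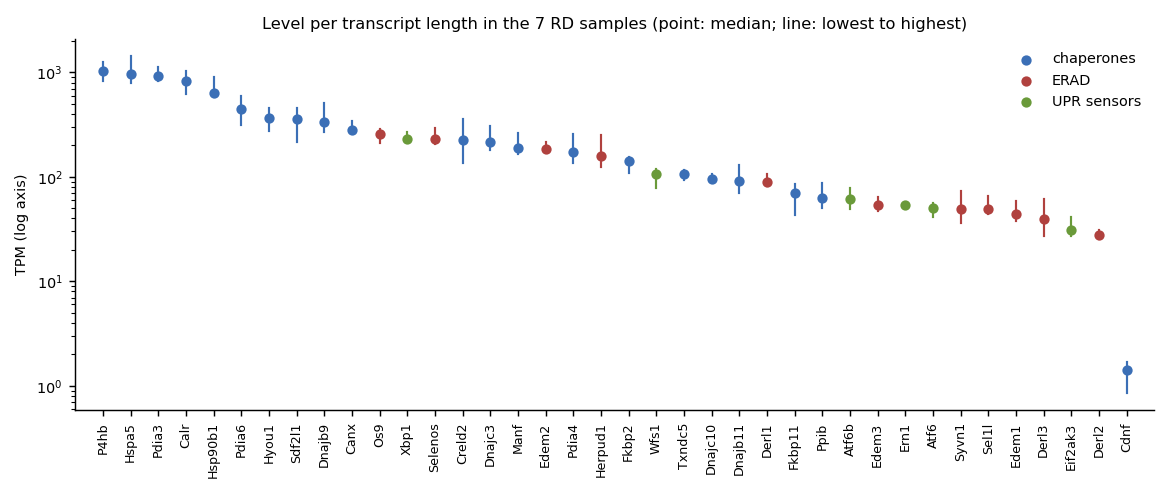
Level of each of the 38 members in the 7 RD samples, in TPM on a log axis, ordered by the median. Points are medians and lines run from the lowest to the highest sample. The 10 highest members are all chaperones, and Cdnf stands apart at a median of 1.42 TPM.

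The promoters of these genes are shown because the ER stress response element (ERSE), to which ATF6 and XBP1 bind together with the factor NF-Y, is a known feature of chaperone genes. The ERSE was searched as CCAAT, 9 bases of any kind and CCACG, on both strands, in RefSeq promoter windows of build GRCm38.p6 that run from 250 bases before to 50 bases after the start of the gene. A window was at hand for 34 members, all but Hyou1, Manf, Derl1 and Atf6. The element was found in 9 of the 34 (26.5%) and in 37 of all 27025 genes with a window (0.137%). The 9 were 7 of 19 chaperones, 2 of 10 ERAD members and 0 of 5 sensor members. The sites are printed 5′ to 3′ along the strand of the gene with 5 bases on each side, and capitals mark the element. In Calr, Creld2, Derl3 and the second site of Hsp90b1 the element lies on the opposite strand, so it reads in reverse complement.
Hspa5, chr2:34772025-34772043, plus strand: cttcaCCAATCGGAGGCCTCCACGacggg
Hsp90b1, chr10:86705638-86705656, minus strand: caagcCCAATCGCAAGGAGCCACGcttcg
Hsp90b1, chr10:86705533-86705551, minus strand: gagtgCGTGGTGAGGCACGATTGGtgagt
Dnajc3, chr14:118937827-118937845, plus strand: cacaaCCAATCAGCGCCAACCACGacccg
Calr, chr8:84847075-84847093, minus strand: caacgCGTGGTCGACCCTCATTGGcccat
Canx, chr11:50325800-50325818, minus strand: attgaCCAATCACCACGCTCCACGaagaa
Pdia6, chr12:17266491-17266509, plus strand: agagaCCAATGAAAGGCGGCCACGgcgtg
Creld2, chr15:88819520-88819538, plus strand: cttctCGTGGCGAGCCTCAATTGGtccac
Syvn1, chr19:6046532-6046550, plus strand: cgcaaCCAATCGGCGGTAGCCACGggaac
Derl3, chr10:75893242-75893260, plus strand: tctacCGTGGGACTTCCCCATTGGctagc

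All of these elements lie upstream of the RefSeq start, between 212 bases (the outer site of Hsp90b1) and 26 bases (Syvn1) before it. The annotation used for gene positions below starts Hspa5 further upstream, at chr2:34771970, so its element lies inside that gene. A related element, ERSE-II (ATTGG, 1 base of any kind and CCACG), was searched after these results were seen. It was found in the windows of 2 members and of 12 genes in all (0.0444%), again with the element in capitals. In Dnajb11 it lies 7 to 17 bases past the start of the gene and in Herpud1 it begins 52 bases before it.
Dnajb11, chr16:22857852-22857862, plus strand: cggcgATTGGCCCACGcctgg
Herpud1, chr8:94386377-94386387, plus strand: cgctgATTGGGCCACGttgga

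The effect of the high-fat diet was taken from HFD vs RD. The differences were mostly positive, and for all but 2 members they did not pass the test. Derl3 and Edem2, both of the ERAD branch, were higher in HFD. The test was edgeR's quasi-likelihood test with an adjusted p under 0.01 over all genes. These 2 of 38 members compare with 2.00% of all genes tested that were called higher. The groups overlapped for all 38 members, and 0.665% of all genes had every HFD sample above every RD sample.

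In the chaperone branch, 20 of 21 members had a positive log2 fold change in HFD vs RD, with a median of 0.37 against -0.0044 over all genes. By edgeR 0 of the 21 passed, and DESeq2 called 4. With the run of libraries as a covariate edgeR called 12 of the 21, and a block for the replicate number gave 11. An unadjusted p under 0.05 with a higher level in HFD was found for 15 of the 21, against 10.5% of all genes. Hspa5 (ENSMUSG00000026864, chr2:34771970-34777547) encodes BiP, which binds unfolded chains and holds the sensors inactive. Its normalized counts were 54829, 69634 and 102199 in RD and 70000, 97272 and 153233 in HFD, each given as the lowest, median and highest sample. HFD replicates 1, 2 and 4 lay above every RD sample and the other HFD samples lay within the RD range. Its log2 fold change was 0.44 ± 0.16 (SE, adjusted p = 0.086). Creld2 (ENSMUSG00000023272, chr15:88819646-88826683), a thiol-disulphide chaperone, ran from 3082 over 5252 to 8391 in RD and from 5085 over 9163 to 16261 in HFD. It had the largest difference of the branch, 0.88 ± 0.22 (adjusted p = 0.0115).

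The next chaperones in order of p also had higher medians in HFD. Fkbp11 (ENSMUSG00000003355, chr15:98724366-98728198), a peptidyl-prolyl isomerase anchored in the ER membrane, had 1910, 3204 and 3924 normalized counts in RD and 2892, 4374 and 8154 in HFD. Its log2 fold change was 0.69 ± 0.17 (adjusted p = 0.0119). Fkbp2 (ENSMUSG00000056629, chr19:6977741-6980501), an isomerase of the same family in the ER lumen, ran from 2975 over 3943 to 4625 in RD and from 4234 over 4815 to 6341 in HFD. The difference was 0.35 ± 0.09 (adjusted p = 0.0145). P4hb (ENSMUSG00000025130, chr11:120560298-120573253) ran from 38898 over 49862 to 60768 in RD and from 48775 over 62660 to 94896 in HFD, with a log2 fold change of 0.43 ± 0.11 (adjusted p = 0.0167). In each of these genes HFD replicate 7 was the lowest HFD sample and lay within the RD range. Within that range also lay HFD replicates 3 and 6 for Fkbp2, at 4363 and 4404, and HFD replicate 6 for P4hb, at 56741. Canx, the membrane-bound lectin chaperone, was the member of the branch with a negative value, -0.03 with a 95% interval of -0.20 to 0.14.

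In the ERAD branch, 10 of 11 members had a positive log2 fold change in HFD vs RD, with a median of 0.27, and 8 had an unadjusted p under 0.05. Edem2 (ENSMUSG00000038312, chr2:155701677-155729475) encodes a protein that starts mannose trimming and so marks glycoproteins for degradation. It had 9828, 10844 and 12516 normalized counts in RD and 12303, 15174 and 17741 in HFD. HFD replicate 7 alone lay within the RD range. Edem2 was 1.38-fold higher in HFD, a log2 fold change of 0.46 ± 0.07 (adjusted p = 0.000195). Derl3 (ENSMUSG00000009092, chr10:75893413-75895941), a derlin of the retrotranslocation complex, ran from 867 over 1323 to 2136 in RD and from 1185 over 2768 to 3850 in HFD. It was 1.93-fold higher in HFD, 0.95 ± 0.21 on the log2 scale (adjusted p = 0.00414). Again HFD replicate 7 was the exception, at a level below the RD median.

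Herpud1 (ENSMUSG00000031770, chr8:94386438-94395377), which brings ubiquitin ligases and derlins together, had 4670, 6517 and 10034 normalized counts in RD and 6847, 9412 and 13031 in HFD. The log2 fold change was 0.49 ± 0.14 (adjusted p = 0.0306). Os9 (ENSMUSG00000040462, chr10:127095650-127121131), the lectin that delivers trimmed glycoproteins to the ligase complex, ran from 9194 over 11340 to 13679 in RD and from 10277 over 13039 to 17240 in HFD, a difference of 0.27 ± 0.11 (adjusted p = 0.136). The ligase Syvn1 (HRD1) and its partner Sel1l had values of 0.41 and 0.24 that did not pass. Derl1 and Derl2, the other derlins, stood at 0.02 and -0.08, so the derlins did not share a value.

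In the sensor branch the diet gave differences near 0. The median log2 fold change was 0.025, 4 of 6 were positive, edgeR and DESeq2 each called 0, and 0 had an unadjusted p under 0.05. Xbp1 (ENSMUSG00000020484, chr11:5520659-5525893) ran from 12169 over 13128 to 14665 normalized counts in RD and from 11900 over 12989 to 13486 in HFD. The difference was -0.06, with a 95% interval of -0.18 to 0.06. Ern1 (ENSMUSG00000020715, chr11:106394650-106487852) had 6976, 7408 and 8003 in RD and 6782, 7446 and 8255 in HFD, a difference of 0.01 with an interval of -0.10 to 0.12. These values bound the change of the RNA of either gene but say nothing of splicing or phosphorylation. Atf6 (ENSMUSG00000026663, chr1:170704674-170867771) ran from 6517 over 7642 to 9246 in RD and from 6966 over 7512 to 8826 in HFD, with an interval of -0.17 to 0.13. Eif2ak3 (ENSMUSG00000031668, chr6:70844515-70905245) ran from 2787 over 3235 to 4244 in RD and from 3086 over 3593 to 3891 in HFD, with an interval of -0.05 to 0.27. Wfs1 (ENSMUSG00000039474, chr5:36966104-36989205), which encodes wolframin, a negative regulator of ATF6, had 5087, 7323 and 7885 in RD and 6316, 6690 and 8954 in HFD, with an interval of -0.15 to 0.23. Atf6b, a relative of Atf6, stood at 0.04.

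The number of members called higher in HFD vs RD depended on the test and on the libraries. DESeq2 called 8 (3.54% of all genes), 4 chaperones and 4 ERAD members. With the run of libraries as a covariate edgeR called 17 (3.31% of all genes), 12 chaperones and 5 ERAD members, and a block for the replicate number gave 15 (3.21%), 11 chaperones and 4 ERAD members. Within replicates 1 to 4 it called 4 members (1.39%), Creld2, Derl3, Edem2 and Fkbp11, and within replicates 5 to 7 it called 12 (0.747%), and the chaperone median was 0.33 and 0.39 in these runs. Leaving out HFD replicate 7 gave 11 (3.18%), RD replicate 2 gave 8 (2.28%), and both together, an alternative chosen after seeing the data, gave 17 (3.65%). Without RD replicate 3 there were 4 (515 of 27040 genes called higher). Only 1 was left, Edem2, without any of RD replicates 1, 5, 6 and 7 or HFD replicates 1 and 4, where Derl3 did not pass. In these fits 325 (of 27061) to 417 (of 27120) genes were called higher, against 544 of 27229 in the main fit. A test of whether the diet effect differed between the runs of libraries called 0 members and 0 of all 27229 genes. An unadjusted p under 0.05 was found for 4 of 38 members, against 1862 of all 27229 genes. The smallest adjusted p of a member was 0.692, and DESeq2 likewise called 0 members. Since 0 of all genes passed, this does not show that the diet effect was equal in the runs.

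**Figure D2:**
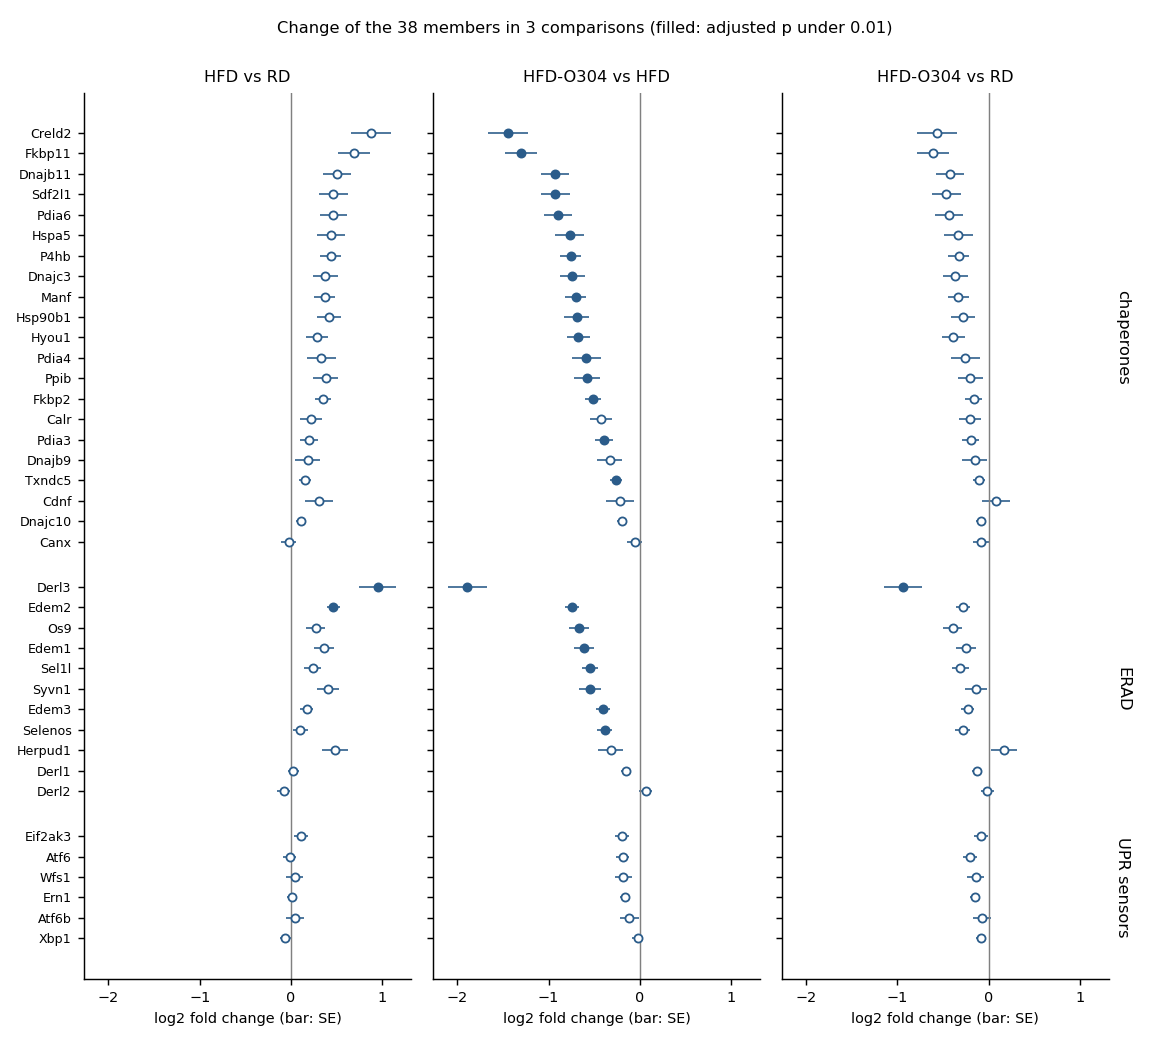
Log2 fold change of each of the 38 members in the 3 comparisons, grouped by branch, with bars for the SE. Filled points passed an adjusted p under 0.01: 2 members in HFD vs RD, 24 in HFD-O304 vs HFD and 1 in HFD-O304 vs RD. The chaperone and ERAD points lie left of 0 in the middle panel, Derl2 excepted. The 6 sensor points there also lie left of 0, between -0.192 and -0.0246.

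The effect of O304 on the high-fat diet was taken from HFD-O304 vs HFD. Here the chaperone and ERAD branches were lower in HFD-O304. In all, 24 of 38 members fell and 0 rose, against 6.79% of all genes tested that were called lower. They were 16 of 21 chaperones, 8 of 11 ERAD members and 0 of 6 sensor members. For 19 members, 11 chaperones and 8 ERAD members, every HFD-O304 sample lay below every HFD sample, which held for 3.61% of all genes. The median log2 fold change was -0.67 for chaperones, -0.55 for ERAD and -0.17 for sensors, against 0.027 over all genes, and the differences between the branches were not tested.

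Among the chaperones, Hspa5 stood at 54504, 64096 and 69778 normalized counts in HFD-O304. Its highest HFD-O304 sample lay just below the lowest HFD sample at 70000. It fell by 0.77 on the log2 scale (SE 0.16, adjusted p = 0.000656), to 0.587 of the HFD level. Creld2 ran from 3047 over 3809 to 4709 in HFD-O304, and fell by 1.44 (SE 0.22, adjusted p = 2.39e-05). Fkbp11 ran from 1559 over 2046 to 2323 and fell by 1.30 (SE 0.18, adjusted p = 4.43e-06). These were the largest falls of the branch, to 0.368 and 0.407 of the HFD level.

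P4hb, the member with the highest median TPM in RD, ran from 36710 over 38248 to 45653 normalized counts in HFD-O304. It fell by 0.76 (SE 0.11, adjusted p = 1.98e-05). Pdia6 (ENSMUSG00000020571, chr12:17266545-17284770), a disulphide isomerase that works with BiP, had 19284, 28387 and 37615 in RD, 26013, 35808 and 60717 in HFD and 18703, 22804 and 24858 in HFD-O304. It fell by 0.90 (SE 0.15, adjusted p = 6.96e-05). Both enzymes were lower in every HFD-O304 sample than in any HFD sample. Hyou1 (ENSMUSG00000032115, chr9:44379490-44392369), the large HSP70-type exchange factor of BiP, had 32603, 45027 and 59968 in RD, 42006, 54567 and 75119 in HFD and 31516, 35872 and 38996 in HFD-O304, and fell by 0.67 (SE 0.12, adjusted p = 0.000202). Fkbp2 ran from 3279 over 3536 to 3850 in HFD-O304 and fell by 0.51 (SE 0.09, adjusted p = 0.00013). Within replicates 5 to 7 alone Fkbp2 did not pass (adjusted p = 0.0184).

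Of the J-protein co-chaperones of BiP, Dnajb11 and Dnajc3 fell by 0.93 and 0.74, whereas Dnajb9 and Dnajc10 did not pass. Sdf2l1, a partner of Dnajb11, fell by 0.92, and for these 3 genes that fell the groups were separate. Manf, a secreted ER-resident factor, fell by 0.70 and Hsp90b1 by 0.69. Pdia4, Ppib, Pdia3 and Txndc5 fell by 0.59, 0.58, 0.39 and 0.26. The 5 chaperones that did not pass were Calr at -0.42 (adjusted p = 0.0132), Dnajb9 at -0.33, Cdnf at -0.22, Dnajc10 at -0.19 and Canx at -0.06. For Canx the 95% interval was -0.23 to 0.11. Calr and Canx are the lectin chaperones that bind glycoproteins, and Pdia3 is their partner among the disulphide isomerases.

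In the ERAD branch Derl3 fell the most of all members. It ran from 598 over 726 to 1109 in HFD-O304, so that its highest sample lay below the lowest HFD sample at 1185. The log2 fold change was -1.89 ± 0.21 (adjusted p = 3.4e-07), to 0.270 of the HFD level. Edem2 had 8383, 9050 and 9889 in HFD-O304 and fell by 0.74 (SE 0.07, adjusted p = 2.83e-08), the smallest p of the 38 members. Os9 ran from 7337 over 8431 to 10179 and fell by 0.66 (SE 0.11, adjusted p = 5.19e-05). Edem1 and Edem3, mannosidase-like proteins related to Edem2, fell by 0.61 and 0.40. The ligase Syvn1 and its partner Sel1l fell by 0.54 and 0.55, and Selenos, a selenoprotein that binds the derlins, by 0.39.

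The 3 ERAD members that did not pass were Herpud1, Derl1 and Derl2. Herpud1 ran from 6372 over 7317 to 8655 in HFD-O304, within the RD range and overlapping the HFD range, with a log2 fold change of -0.32 ± 0.14 (adjusted p = 0.121). Derl1 stood at -0.15. Derl2 was the member with a positive value in this comparison, 0.06 with a 95% interval of -0.08 to 0.21.

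In the sensor branch all 6 log2 fold changes were negative in HFD-O304 vs HFD, from -0.192 to -0.0246, unlike in HFD vs RD. By edgeR 0 of 6 passed and 3 were lower at an unadjusted p under 0.05, against 14.8% of all genes. DESeq2 called 27 members lower in all (8.44% of all genes), of which Ern1 was the 1 sensor, and edgeR called Ern1 within replicates 1 to 4 alone. Ern1 ran from 6058 over 6640 to 7254 normalized counts in HFD-O304, a log2 fold change of -0.16 ± 0.05 (adjusted p = 0.033). Atf6 ran from 6253 over 6682 to 7077, at -0.19 ± 0.07 (adjusted p = 0.0724), and Eif2ak3 from 2813 over 3093 to 3235, at -0.19 ± 0.08 (adjusted p = 0.089). The HFD-O304 range of each of these overlapped the HFD range. Xbp1 ran from 11456 over 12204 to 14033 and differed from HFD by -0.02, with a 95% interval of -0.14 to 0.09. Wfs1 ran from 5431 over 6365 to 6708, at -0.18 ± 0.09 (adjusted p = 0.191). Atf6b stood at -0.12.

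The fall of chaperone and ERAD members held in both runs of libraries. Within replicates 1 to 4, 25 members were called lower (5.12% of all genes), 16 chaperones, 8 ERAD members and the sensor Ern1, and the chaperone and ERAD medians were -0.76 and -0.59. Within replicates 5 to 7, 22 were called lower (3.65%), 15 chaperones and 7 ERAD members, and the medians were -0.50 and -0.43. Without HFD-O304 replicate 1, whose labels disagree, 22 were called (6.08%), and without RD replicate 2 and HFD replicate 7 together, 25 (7.39%). The test of whether the O304 effect differed between the runs called 0 members and 0 of all 27229 genes. An unadjusted p under 0.05 was found for 6 of 38 members, against 1314 of all 27229 genes. The smallest adjusted p of a member was 0.884, and DESeq2 also called 0 members. Here too the test does not show that the effect was equal in the runs.

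**Figure D3:**
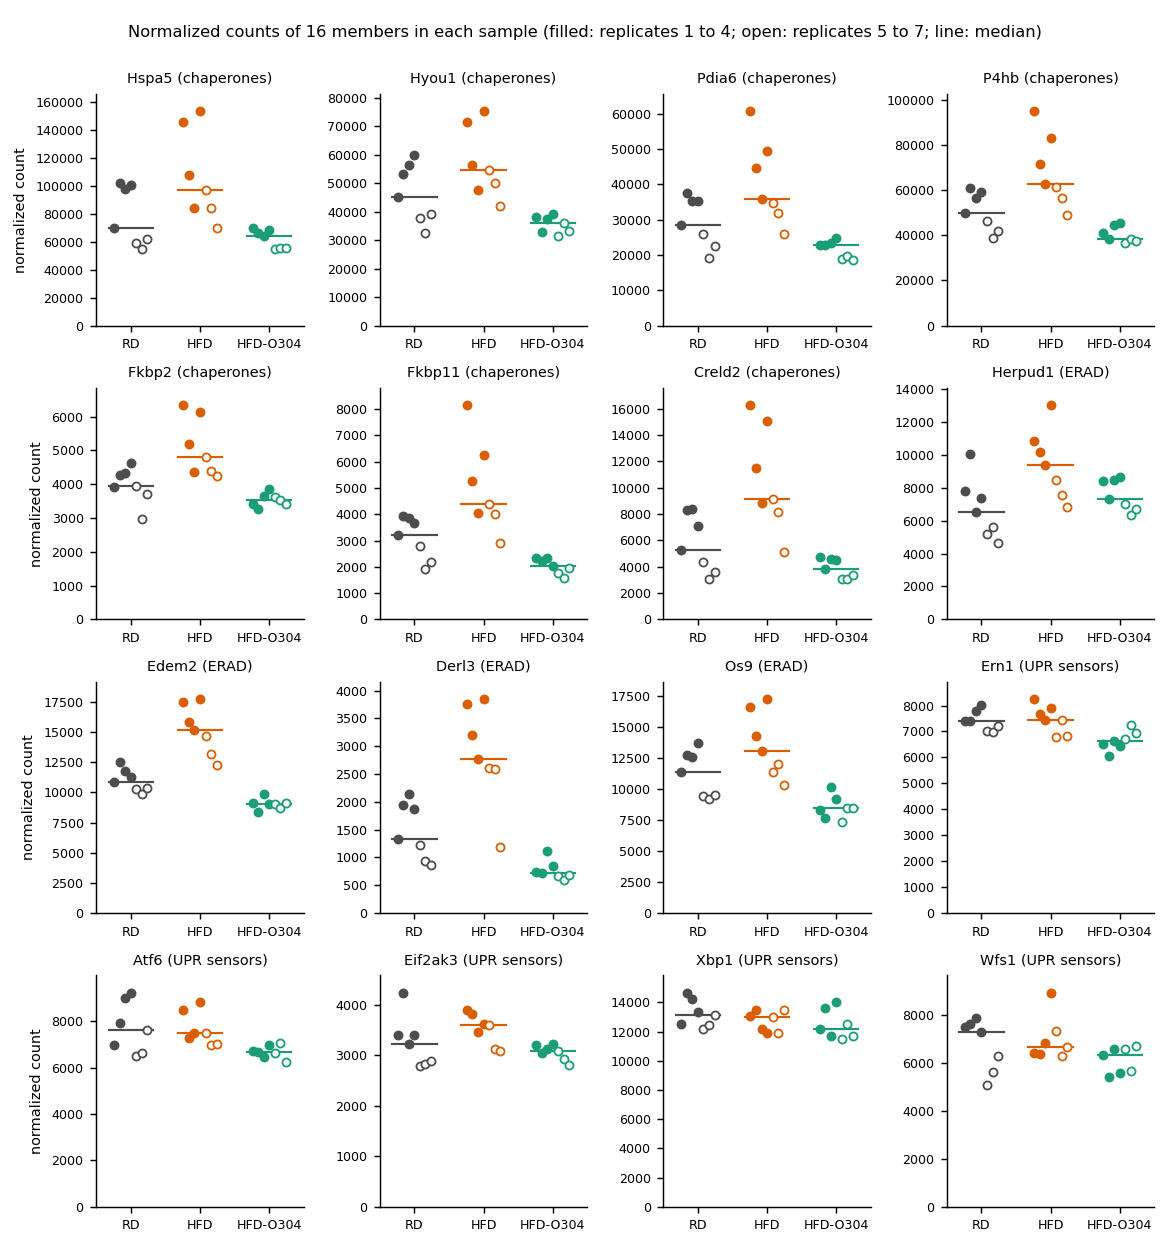
Normalized counts (axis from 0) of 16 members in every sample, with 1 panel per gene, by group. Filled points are replicates 1 to 4, open points replicates 5 to 7, and lines are medians. For Derl3 the 7 HFD-O304 samples sit between 598 and 1109, below all HFD samples, whereas the Xbp1 samples of the 3 groups overlap.

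The presence of an ERSE was set beside these changes. Of the 9 members with the element, 7 fell in HFD-O304 vs HFD, with a median log2 fold change of -0.74. Of the 20 chaperone and ERAD members with a window and no element, 15 fell, with a median of -0.53. Calr and Canx hold the element and did not pass, whereas Fkbp11, Edem2 and Os9 fell without it in this window. Outside the members, 28 genes held the element, 15 of them were tested, and 1 of the 15 was called lower, the zinc finger gene Zfp57 (log2 fold change -2.06). Their median was -0.03, and of all 14220 tested genes with a window 9.75% were called lower.

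HFD-O304 was also compared with RD, which asks how far the treated islets stood from those on regular diet. The comparison shares its samples with the others, so its values add to theirs but are not independent of them. Derl3 alone was lower in HFD-O304 than in RD, 1 of 38 members against 0.903% of all genes tested that were called lower. It fell by 0.94 (SE 0.21, adjusted p = 0.00941), to 0.521 of the RD level, and the groups overlapped, since RD replicates 6 and 7, at 943 and 867, lay within the range of HFD-O304. DESeq2 called 2 members lower, Derl3 and Edem2 (1.76% of all genes). For all 38 members the groups overlapped, while 0.870% of all genes had every HFD-O304 sample below every RD sample. The Derl3 call was lost in 15 of the 21 fits that left out a library, whose adjusted p ranged from 0.0014 to 0.0385, among them those without RD replicates 1 to 5, and within replicates 5 to 7.

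Below that threshold, 36 of 38 members lay below 0 on the log2 scale in HFD-O304 vs RD. The chaperone median was -0.28, with 0 called by edgeR and by DESeq2 and 11 lower at an unadjusted p under 0.05, against 7.70% of all genes. The ERAD median was -0.25 and the sensor median -0.11, with 0 sensors called by either tool and 2 at an unadjusted p under 0.05. Edem2 stood at -0.28 ± 0.07 (adjusted p = 0.0262) and Os9 at -0.40 ± 0.11 (adjusted p = 0.0421), and these were the members next to Derl3 in p. Fkbp11 stood at -0.61 ± 0.17 (adjusted p = 0.0568), Hyou1 at -0.39 ± 0.12 (adjusted p = 0.0951), Pdia6 at -0.43 ± 0.15 (adjusted p = 0.131), Creld2 at -0.56 ± 0.22 (adjusted p = 0.199) and Hspa5 at -0.33 ± 0.16 (adjusted p = 0.324). Herpud1 and Cdnf were the members with positive values, 0.17 and 0.09. Among the sensors Ern1 stood at -0.15 ± 0.05 (adjusted p = 0.139) and Atf6 at -0.21 ± 0.07 (adjusted p = 0.148), and Xbp1 at -0.09 with a 95% interval of -0.20 to 0.03. The values depended on the run of libraries, with a chaperone median of -0.41 within replicates 1 to 4 and of -0.12 within replicates 5 to 7, and 11 of 38 members positive in the latter.

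The mean level of each branch in each sample shows the groups and the runs of libraries side by side. The mean log2 difference of the 21 chaperones from the RD mean ran from -0.388 (replicate 6) to 0.341 (replicate 2) in RD, from -0.059 (replicate 7) to 0.809 (replicate 1) in HFD and from -0.395 (replicate 7) to -0.100 (replicate 4) in HFD-O304. The HFD-O304 samples all lay below the HFD samples, and they overlapped the lower RD samples. For the 11 ERAD members the values ran from -0.249 to 0.329 in RD, from -0.035 to 0.587 in HFD and from -0.329 to -0.164 in HFD-O304. For the 6 sensor members they ran from -0.235 to 0.177, from -0.061 to 0.193 and from -0.161 to -0.071. In RD, replicates 5 to 7 were the lowest samples in every branch.

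**Figure D4:**
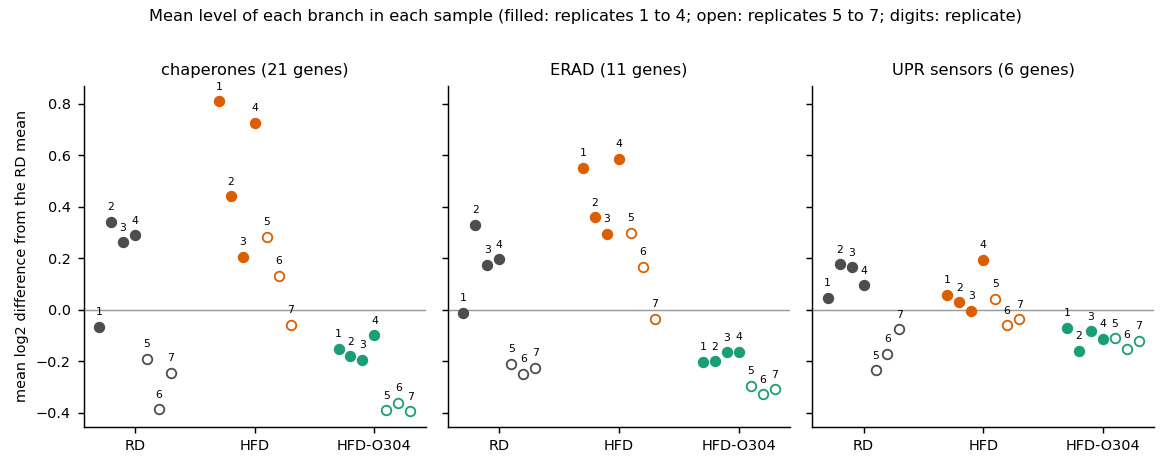
Mean log2 difference of the members of each branch from the RD mean, for every sample, with the replicate number above the point. Filled points are replicates 1 to 4 and open points replicates 5 to 7. The chaperone means of the 7 HFD-O304 samples sit between -0.395 and -0.100, below those of all HFD samples, and replicates 1 to 4 tend to lie above 5 to 7.

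The spread of the members between pools was set out by group. The median over members of the standard deviation on the log2 scale was 0.263 in RD, against 0.274 in HFD and 0.133 in HFD-O304. The standard deviation was smallest in HFD-O304 for 33 of the 38 members, 19 of 21 chaperones, 10 of 11 ERAD members and 4 of 6 sensor members. In chaperones it was 0.322, 0.328 and 0.165. These values were not tested. The same spread was not computed over all genes, so they do not say whether it is particular to the members. Part of the spread in RD and HFD lay between the runs of libraries. Replicates 1 to 4 exceeded replicates 5 to 7 by a median of 0.42 on the log2 scale over the members in RD, by 0.34 in HFD and by 0.15 in HFD-O304. For Hspa5 the excess was 0.642, 0.524 and 0.285 in these groups.

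Other genes of the same pathways, 40 listed beside the members, were tested in the same fit. For HFD-O304 vs HFD, 15 of 40 were called lower and 0 higher, against 6.79% of all genes tested that were called lower. They were 8 of 15 further folding genes, 5 of 15 further ERAD genes and 2 of 10 genes of the UPR and its targets. The medians of these lists were -0.39, -0.16 and -0.13. Of the folding genes, the glucosidase II subunit Prkcsh fell by 0.81 (adjusted p = 4.72e-05) and Qsox1, a sulphydryl oxidase, by 0.54. Mogs, the glucosidase that starts glycan trimming, fell by 0.68. Of the ERAD genes, the signal peptide peptidase Hm13 fell by 0.64 and the lectin Erlec1, which resembles Os9, by 0.58. Of the UPR genes, the stress-induced transcription factor Atf3 fell by 1.28 and Ppp1r15a, which reverses the translation block, by 0.38.

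For HFD vs RD, 3 of the 40 were called higher, against 2.00% of all genes tested. They were Txnip, a regulator of redox state (1.27), Prkcsh (0.60) and Erlec1 (0.38). Mogs, Hm13, Atf3, Ppp1r15a and Qsox1 did not pass, at 0.54, 0.36, 1.09, 0.27 and 0.24. For HFD-O304 vs RD, 1 of the 40 was called lower, against 0.903% of all genes tested. It was Ero1b, the ER oxidase typical of beta cells, which fell by 0.34 (adjusted p = 0.00312). Ero1b did not pass in HFD vs RD, at -0.11, or in HFD-O304 vs HFD, at -0.23 (adjusted p = 0.0151). Txnip in HFD-O304 stood between the other groups, at -0.77 against HFD (adjusted p = 0.0207) and 0.50 against RD (adjusted p = 0.324).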

How the data were processed

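Total RNA from 21 islet samples (RD, HFD and HFD-O304, 7 each) was sequenced. After FastQC, STAR was run by the authors against GRCm38 (versions not given in the sources used here), and they deposited STAR's raw counts per gene for each sample, unstranded and for each strand. The count for the reverse strand was used, since it held 28.8 to 36.3 times the reads of the other strand. Rows for unmapped, multimapping, ambiguous or unassigned reads were left out. Depth is given with the groups in the text above. It limits the precision of low genes such as Cdnf, whereas the next lowest, Derl3, had at least 598 normalized counts in every sample.

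Samples were grouped by title, or by the diet entry where the title was shortened. All 55536 identifiers matched the GENCODE M21 annotation (GRCm38), from which symbols, positions and exon lengths were taken. Genes with at least 10 reads over all samples (27229) were tested with edgeR 4.0.16 in R 4.3.3 (TMM scaling, quasi-likelihood F test, the 3 groups in 1 fit, Benjamini-Hochberg adjustment over all genes, adjusted p under 0.01). The SE is the log2 fold change divided by the root of F, and 95% intervals use the t distribution of the fit. DESeq2 1.42.0, which the study used, was the alternative test, and its size factors gave the normalized counts. TPM used the merged exon length of each gene. A share of exon bases lies under another gene of the same strand in Hsp90b1 (5.38%), Pdia4 (0.584%) and Manf (0.397%), and STAR leaves out reads that fall on both.

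Full values are given for Hspa5, Xbp1, Ern1, Atf6 and Eif2ak3 and for the 3 members with the smallest p in each branch and comparison, and of the further pathway genes for the 2 with the smallest p in each group. Other members named in the text are given by their fold change. The members, branches and lists were chosen with earlier results of these data known, so medians and counts over them are descriptions. No sample pair within a group came close to sampling noise (chi-square per degree of freedom of at least 8.01). No sample was therefore treated as a repeat sequencing of another, and each was counted in n. Whether pools share mice is not answered by this check, because islets taken separately from the same mice could also exceed that noise. The n thus rests on the labels. The test was also run on simulated counts. These held no differences between the runs of libraries, so that check does not bear on how such differences affect the calls. Single values of some alpha-cell markers are not reported here. Alternatives were another scaling, other filters on low counts, the compared groups alone, unstranded counts, a replicate block, the run of libraries or the acinar markers as covariates, each run alone, an adjusted p under 0.05, and each library left out.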

Additional observations from a re-analysis of the deposited data

Results flagged for a closer look

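Each of the 38 members was looked at in each of the 3 groups of 7 samples. In 4 such sets 1 sample stood far from the rest by the ratio of its gap to the group's whole range. About 1 set in 20 does so by chance. Derl1 in HFD-O304 replicate 2, the shallowest library, had 5277 normalized counts, with the nearest sample at 4755 and the lowest at 4563 (ratio 0.732). Derl2 in HFD replicate 6 was lowest at 3179, with the nearest at 3515 and the highest at 3765 (ratio 0.573). Eif2ak3 in RD replicate 2 was highest at 4244, with the nearest at 3407 and the lowest at 2787 (ratio 0.575). Wfs1 in HFD replicate 4 was highest at 8954, with the nearest at 7341 and the lowest at 6316 (ratio 0.612). None of these genes passed the edgeR test in any comparison, and the causes were not tested.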

How the results depend on the processing

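The 24 members called lower in HFD-O304 vs HFD moved to 20 to 26 when a library was left out. Over all genes, 1619 (of 27038) to 2006 (of 27063) were called lower in those fits. Under the other alternatives the number of members stayed within 1.5 times 24. The 2 members called in HFD vs RD became 8 with DESeq2 (3.54% of all genes called higher) and 6 with no filter on low counts (617 of 38650 genes). With the compared groups alone 1 was left (379 of 25665), and with the run of libraries as a covariate there were 17 (3.31%). There were 4 within replicates 1 to 4 (1.39%), 12 within replicates 5 to 7 (0.747%) and 11 at an adjusted p under 0.05. The share of all genes at that last threshold is not given here. Without RD replicate 2 and HFD replicate 7 together there were 17 (3.65%), and with each library left out 1 to 11. In the fits with a library left out, 325 (of 27061) to 860 (of 27063) of all genes were called higher. The 1 member called in HFD-O304 vs RD became 2 with DESeq2 (1.76% of all genes called lower) and 0 with edgeR's own filter (264 of 17788 genes). There were 2 with the compared groups alone (328 of 25902). With the run of libraries as a covariate there were 5 (365 of 27229, against 246 in the main fit). Within replicates 5 to 7 there were 0 (0.617%), and with unstranded counts 0 (226 of 28900). At an adjusted p under 0.05 there were 3, again with no share of all genes given. With each library left out there were 0 to 1, while 138 (of 27040) to 283 (of 27063) of all genes were called lower. The cause was not tested.

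With the replicate number as a block, 15, 27 and 4 members were called in HFD vs RD, HFD-O304 vs HFD and HFD-O304 vs RD. Of all 27229 genes tested, 873 were called higher in the first, 2130 lower in the second and 371 lower in the third. The pairing is not given by the labels. In replicates 5 to 7 same-numbered samples of the groups have adjacent library numbers, and whether they were handled together is not stated. Same-numbered samples correlated in their deviations above 0.1 in 4, 5 and 6 of 7 pairs, with means of 0.202, 0.139 and 0.293. These correlations do not show that the samples are unpaired. The main fit left the numbers out because the labels give no pairs, so its counts hold for unpaired samples only.

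The median log2 fold change of the sensor branch in HFD-O304 vs RD, -0.114, came to -0.244 in replicates 1 to 4 alone and to 0.0216 in replicates 5 to 7 alone. With each library left out, the chaperone, ERAD and sensor medians ranged from 0.294 to 0.451, 0.2 to 0.329 and -0.0266 to 0.0618 in HFD vs RD, from -0.734 to -0.579, -0.601 to -0.48 and -0.188 to -0.136 in HFD-O304 vs HFD, and from -0.328 to -0.197, -0.295 to -0.168 and -0.149 to -0.069 in HFD-O304 vs RD.

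No member that reversed in sign passed the test before or after. The reversals of the members named by rule were those of sensors and are given next. Others also reversed, most in HFD-O304 vs RD within replicates 5 to 7, where 4 chaperones, 2 ERAD members and 3 sensors did. In HFD vs RD, Ern1 reversed to -0.0396 with library totals and -0.0123 within replicates 5 to 7, Atf6 to 0.0443 within replicates 5 to 7 and 0.0204 without RD replicate 2 and HFD replicate 7, Xbp1 to 0.0205 within replicates 5 to 7, and Wfs1 to -0.00594 with library totals and -0.088 within replicates 1 to 4. In HFD-O304 vs HFD, Xbp1 reversed to 0.0751 with library totals and 0.0175 within replicates 1 to 4. In HFD-O304 vs RD, within replicates 5 to 7 Eif2ak3 reversed to 0.0606 and Wfs1 to 0.159, and Eif2ak3 to 0.00406 without RD replicate 2 and HFD replicate 7. With each library left out, values ranged from -0.00755 to 0.0337 for Ern1, -0.056 to 0.0373 for Atf6 and -0.0291 to 0.0902 for Wfs1 in HFD vs RD, and from -0.121 to 0.00415 for Eif2ak3 in HFD-O304 vs RD.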
